A study of Mus musculus with 14 samples.

Results

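6 genes with large positive values in AcB61 spleen were followed across all 14 arrays of the study, namely Prdm16, Sephs1, Agtr2, Cluap1, Hrct1 and Mael. They are 6 of 6286 named genes that could be tested. Each was found as a probe whose only gene symbol in the platform annotation is that of the gene, and each has 1 probe, so no gene could be checked on a second cDNA. The genes were chosen because their measured values were high in AcB61 against A/J or against AcB55. Their values in those 2 comparisons are therefore given as a description, with no test.

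Spleen RNA came from AcB55 mice on 6 arrays and from AcB61 mice on 8. Every cDNA array carried it in the first of 2 channels and A/J spleen RNA in the second. Both strains are inbred recombinant congenic lines with segments of the C57BL/6 genome on an A/J background, so A/J is their main parent as well as the shared comparator. The labels give no age, sex, treatment or infection, and no array compared A/J with A/J. Nothing tells which arrays come from the same mouse or pool, so p-values measure only how far arrays scatter, and that scatter may be technical. A value is the log2 ratio of the strain to A/J, so 1 is a doubling and 0 is the level of A/J. A positive value is read as higher in the strain. This is likely rather than settled, since it rests on the order of the channels in the labels and the dyes are not given. Ratios carry no level, so the presence of spleen markers could not be checked. In bulk tissue, fewer cells of a type and less RNA per cell cannot be told apart.

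The genes encode unrelated proteins. Prdm16 encodes a zinc finger transcription factor of the PR domain family, known for directing cells towards brown fat and for maintaining haematopoietic stem cells. Sephs1 encodes a protein related to selenophosphate synthetase, the enzyme that supplies selenium for selenocysteine, and is itself linked to redox balance. Agtr2 encodes the type 2 receptor for angiotensin II, a receptor coupled to G proteins whose gene lies on the X chromosome. Cluap1 encodes a subunit of intraflagellar transport, the traffic of cargo along cilia, and was named for its association with clusterin. Hrct1 encodes a small protein with a C-terminus rich in histidine. Mael encodes Maelstrom, which acts with piRNAs, the small RNAs that silence transposons in germ cells.

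Upstream sequence was read from RefSeq (GRCm38.p6), where all 6 genes had an entry. For 3 of them, Agtr2, Hrct1 and Mael, the 250 bases before the start site lie outside the annotated gene. They are shown for that reason. The ranges of the strains did not overlap for these genes, nor for Cluap1, whose window overlaps its annotated gene. Agtr2 was high in AcB61, whereas Hrct1 and Mael were low in AcB55. Each sequence runs 5′ to 3′ on the strand of the gene and ends at the base before the start site. Capitals mark only TATATAA in Agtr2 and CACGTG, the E-box, in Mael. Other motifs found in these sequences, CCAAT in both and the GC box in Mael, are left in lower case. Hrct1 has no capitals because it held none of the motifs searched.
Agtr2, chrX:21484374-21484623, plus strand: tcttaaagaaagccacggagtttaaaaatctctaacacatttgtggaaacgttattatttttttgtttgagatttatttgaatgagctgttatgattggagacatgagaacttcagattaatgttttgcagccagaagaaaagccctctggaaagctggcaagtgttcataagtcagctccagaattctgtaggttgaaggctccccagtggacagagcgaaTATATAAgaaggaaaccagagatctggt
Hrct1, chr4:43726948-43727197, plus strand: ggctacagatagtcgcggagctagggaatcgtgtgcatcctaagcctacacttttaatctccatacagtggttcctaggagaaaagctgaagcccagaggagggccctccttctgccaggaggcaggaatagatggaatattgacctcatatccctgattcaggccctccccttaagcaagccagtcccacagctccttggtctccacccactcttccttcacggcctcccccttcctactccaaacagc
Mael, chr1:166238745-166238994, minus strand: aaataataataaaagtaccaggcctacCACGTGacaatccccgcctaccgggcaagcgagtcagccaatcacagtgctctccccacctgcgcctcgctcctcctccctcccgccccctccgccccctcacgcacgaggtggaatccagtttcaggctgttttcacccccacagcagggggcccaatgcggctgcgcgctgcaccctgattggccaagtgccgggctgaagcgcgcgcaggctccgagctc

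The upstream sequences had little in common. Their GC content was 38.4% in Agtr2, 54.0% in Hrct1 and 64.0% in Mael, against a median of 52.4% over 32851 RefSeq start sites. Mael held 18 CpG dinucleotides, Hrct1 4 and Agtr2 3, against a median of 6. The window of Sephs1 at its first listed start site was the richest, with 76.0% GC and 40 CpG, followed in CpG count by Prdm16 with 62.4% GC and 22 CpG, and Cluap1 held 12 at 50.4% GC. These 3 windows overlap longer models of their genes and are given by composition only. In all, 5 motifs were searched on both strands. TATATAA, which resembles the TATA box, stood 28 bases before the start of Agtr2 and occurs in 3.04% of all windows. CACGTG stood 223 bases before the start of Mael and occurs in 6.02%. GGGCGG, the GC box, was found in Prdm16, in Sephs1 and in Mael, and in 32.7% of all windows. CCAAT was found in Prdm16, Agtr2 and Mael, and in 33.8%. AGATAA, a form of the site of GATA factors, was in none of the 6 genes' windows and is in 9.99% of all. A match is a description of these letters only.

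The arrays of a strain were not alike, and this bears on every value that follows. Over all features, AcB61 replicates 3, 5 and 7 correlated with each other at r = 0.704 to 0.795. For replicates 2, 6 and 8 the range was 0.788 to 0.833. Between those sets r was only -0.0894 to 0.151, while replicates 1 and 4 correlated with both sets (0.365 to 0.638). In AcB55, the granulocyte genes measured (S100a9, Lcn2, Ltf and Hdc) had a mean of 1.05 to 1.31 on replicates 1 and 2, against -0.045 to 0.15 on the other 4. Hdc did not share this and stayed near 0 in AcB55 (-0.022 ± 0.054, SD, n = 6). Values without these sets of arrays, a choice made after the correlations were seen, are given where a call or a value depends on them.

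Against A/J, the 6 genes fell into 3 patterns. Prdm16 and Sephs1 were 2.01-fold and 1.95-fold the A/J level in AcB61 and 1.22-fold and 1.36-fold in AcB55. Agtr2 and Cluap1 were 1.72-fold and 1.70-fold in AcB61 and near the A/J level in AcB55. Hrct1 and Mael were near the A/J level in AcB61 and at 0.514 and 0.510 times that level in AcB55. Thus for Hrct1 and Mael the description as high in AcB61 holds only against AcB55. In 4 of the 6 genes, all but Hrct1 and Mael, every AcB61 array that gave a value was positive. Among all 13045 tested features, 6.52% were positive on every AcB61 array. The ranges of the strains did not overlap for 4 of the 6, Agtr2, Cluap1, Hrct1 and Mael, against 1.11% of all features with every AcB61 array above every AcB55 array. The genes were selected on these differences, so nothing is read from either count.

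**Figure D1:**
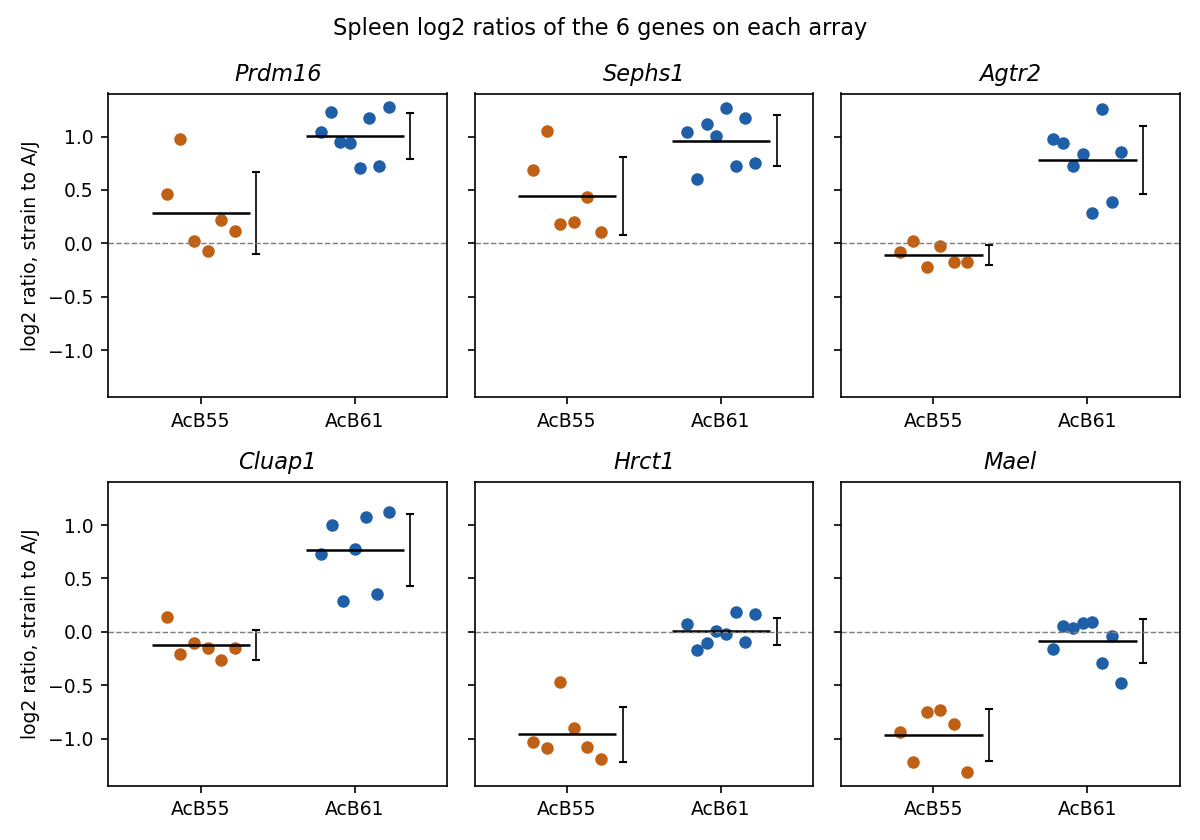
Log2 ratio of the strain to A/J (vertical axis) on each of the 6 AcB55 and 8 AcB61 arrays for the 6 genes. Points are arrays in order of deposit, lines are means, bars are 1 SD, and Cluap1 has 7 AcB61 values. Agtr2 and Cluap1 lie above 0 on every AcB61 array with a value and on 1 AcB55 array each, and Hrct1 and Mael lie below 0 on every AcB55 array.

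Prdm16 had the fifth largest mean of all named genes in AcB61. Its lowest, median and highest values on the 8 AcB61 arrays were 0.70, 0.99 and 1.27, with a mean of 1.00 ± 0.22 (SD, n = 8), a 2.01-fold ratio to A/J. On the 6 AcB55 arrays they were -0.075, 0.17 and 0.97, with a mean of 0.29 ± 0.38 (SD, n = 6). The strains overlapped through a single array, AcB55 replicate 2 at 0.97, while replicate 1 read 0.47 and the other 4 lay between -0.075 and 0.22. The AcB55 mean did not pass the test (adjusted p = 0.0683, limma), and without replicates 1 and 2 it was 0.070 (adjusted p = 0.703). It passed without replicate 4 (0.36, adjusted p = 0.0365) or when replicates 3 and 4, whose titles end in b, were both left out (0.44, adjusted p = 0.0215). It also passed, unmoved at 0.29, when AcB61 replicates 3, 5 and 7 (adjusted p = 0.045) or 2, 6 and 8 (adjusted p = 0.0452) were left out of the shared estimate of spread. As Prdm16 was chosen on its AcB61 ratio to the same A/J comparator, this test is not independent of the choice. The spread of Prdm16 over AcB55 arrays exceeded that of 99.0% of named genes. The difference AcB61 minus AcB55 was 0.72 ± 0.14 (SE).

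Sephs1 ranked 7 in AcB61 and was the member with the highest AcB55 mean. Its AcB61 values ran from 0.60 through a median of 1.02 to 1.27, with a mean of 0.96 ± 0.24 (SD, n = 8), or 1.95-fold. In AcB55 the lowest, median and highest were 0.10, 0.32 and 1.05, and the mean was 0.44 ± 0.37 (SD, n = 6), or 1.36-fold. All 14 arrays were thus above 0, and the strains overlapped: AcB55 replicates 1 and 2 read 0.68 and 1.05, and the other 4 lay between 0.10 and 0.44. Sephs1 was higher in AcB55 than in A/J (adjusted p = 0.00578, limma), where 9.77% of all features passed the test as higher. Both strains share the A/J comparator, and Sephs1 was chosen on its ratio to A/J in AcB61. The test is therefore not independent of that choice. Without AcB55 replicates 1 and 2 the AcB55 mean was 0.23 and the call was lost (adjusted p = 0.133). The same 2 arrays carried the high granulocyte means given above, which Hdc did not share. Their red cell precursor genes averaged 0.716 and 0.741 against 0.446 to 0.606 on the others. The part of these cells in the Sephs1 and Prdm16 values was not tested. AcB61 minus AcB55 was 0.52 ± 0.14 (SE), the smallest strain difference of the 6 genes.

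Agtr2 and Cluap1 had closely similar means in both strains. Agtr2 read 0.28 at the lowest, 0.85 at the median and 1.26 at the highest in AcB61, with a mean of 0.78 ± 0.32 (SD, n = 8). In AcB55 it read -0.23, -0.13 and 0.020, with a mean of -0.11 ± 0.097 (SD, n = 6). Its lowest AcB61 array lay 0.26 above its highest AcB55 array. Cluap1 was 0.29, 0.77 and 1.12 in AcB61 (mean 0.76 ± 0.34, SD, n = 7, replicate 5 having no value) and -0.26, -0.15 and 0.14 in AcB55 (mean -0.12 ± 0.14, SD, n = 6). The gap between its strains was 0.16. Both genes varied widely within AcB61, more than 92.6% and 94.0% of named genes. AcB61 minus AcB55 was 0.89 ± 0.12 (SE) for Agtr2 and 0.89 ± 0.13 (SE) for Cluap1, ranks 9 and 10 of the named genes in that comparison.

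Agtr2 is X-linked, and the labels do not give the sex of the mice. Xist, the RNA that silences one X chromosome in female cells, fell in AcB61 (-1.20 ± 0.38, SD, n = 8, adjusted p = 3.66e-07, limma) and was 0.019 ± 0.057 (SD, n = 6) in AcB55. Its AcB61 arrays lay between -1.71 and -0.73, below all AcB55 arrays (-0.075 to 0.081). The other 4 measured genes of the sex-linked list, all X-linked, did not fall with Xist in AcB61 against A/J. Eif2s3x was higher there (0.25 ± 0.21, adjusted p = 0.0101, limma), and Kdm5c (0.085 ± 0.20), Kdm6a (0.070 ± 0.31) and Ddx3x (-0.028 ± 0.19) did not pass. In AcB55 Eif2s3x (0.53 ± 0.16, adjusted p = 5.76e-05, limma) and Kdm5c (0.34 ± 0.23, adjusted p = 0.00448, limma) were higher. Kdm6a was 0.28 ± 0.097 there (adjusted p = 0.0325, limma), a call lost without AcB55 replicate 1, 2, 3, 4 or 6, without 1 and 2 or without 3 and 4 (adjusted p = 0.0589 to 0.149). AcB61 minus AcB55 was -0.29 for Eif2s3x, -0.26 for Kdm5c, -0.21 for Kdm6a and -0.0036 for Ddx3x. None of these differences passed (adjusted p = 0.0666 to 0.987, limma). At an unadjusted p under 0.05, 3 of the 5 listed genes, Xist among them, were lower in AcB61 than in AcB55. No Y-linked gene was among those measured on this list, and sex and strain cannot be told apart for Agtr2.

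Hrct1 and Mael were low in AcB55 and unremarkable in AcB61. Hrct1 had AcB55 values of -1.19 at the lowest, -1.05 at the median and -0.47 at the highest, with a mean of -0.96 ± 0.26 (SD, n = 6). In AcB61 they were -0.17, -0.0056 and 0.18, with a mean of 0.0045 ± 0.13 (SD, n = 8). Replicate 3 was the AcB55 array at -0.47, and the other 5 lay at or below -0.90. Mael ran from -1.31 through -0.90 to -0.73 in AcB55 (mean -0.97 ± 0.24, SD, n = 6) and from -0.48 through -0.0020 to 0.089 in AcB61 (mean -0.088 ± 0.21, SD, n = 8). Of the 6 genes, these 2 were negative on every AcB55 array, as were 13.2% of all features. The gaps between the strains were 0.29 for Hrct1 and 0.25 for Mael, and AcB61 minus AcB55 was 0.96 ± 0.10 (SE) and 0.88 ± 0.11 (SE). Among all named genes Hrct1 and Mael ranked 6268 and 6270 of 6286 in AcB55 against A/J, and 3408 and 5127 in AcB61.

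**Figure D2:**
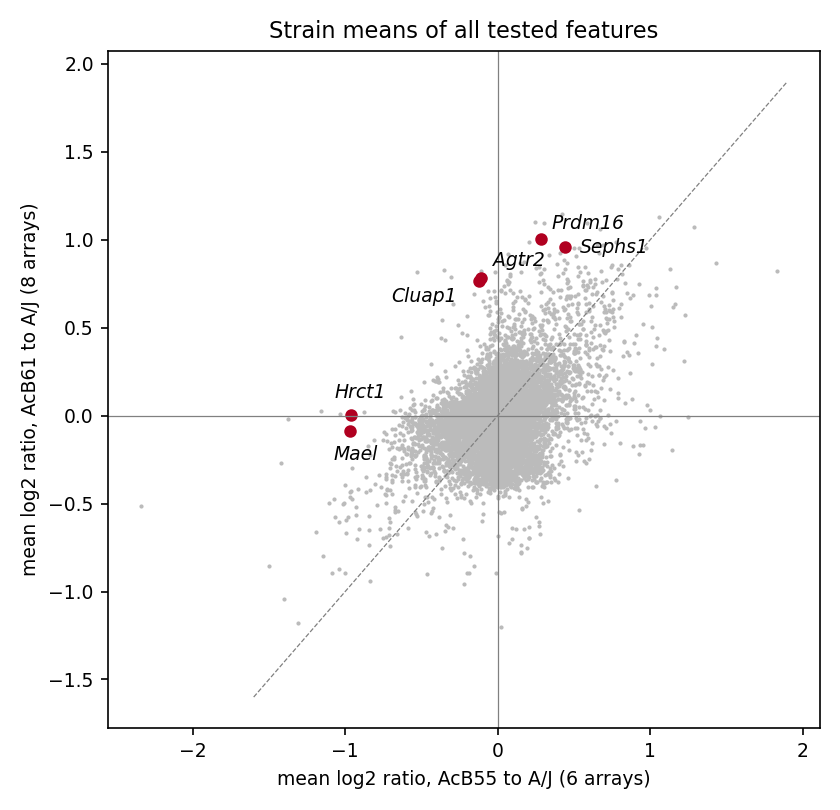
Mean log2 ratio to A/J in AcB55 (horizontal axis, 6 arrays) and in AcB61 (vertical axis, 8 arrays) of all 13045 tested features in grey, with the 6 genes in red and the line of equal means dashed. Prdm16 and Sephs1 lie above 0 in both strains, Agtr2 and Cluap1 near 0 in AcB55, and Hrct1 and Mael near 0 in AcB61.

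The choice had no fixed threshold, and genes next in rank were not members. Around Agtr2 (0.78) and Cluap1 (0.76) in AcB61 against A/J stood Ssna1 (0.79), Fzr1 (0.78), 1810014B01Rik (0.77) and Nt5c3 (0.76). In AcB61 against AcB55, Lhpp (1.04) stood above Hrct1 (0.96), and Fzr1 (0.87) just below Mael (0.88).

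On the AcB61 arrays the members split by the sets of arrays described above, and not all in the same direction. Prdm16 ranged over 1.18 to 1.27 in the set of replicates 2, 6 and 8, against 0.70 to 0.95 in that of 3, 5 and 7. Agtr2 read 0.85 to 1.26 on the first set and 0.28 to 0.72 on the second, and Cluap1 1.00 to 1.12 against 0.29 and 0.36. Sephs1 ran the other way, with 0.60 to 0.75 on replicates 2, 6 and 8 and 1.12 to 1.27 on 3, 5 and 7. In each of these 4 genes the sets did not overlap. Replicates 1 and 4 lay between them for Cluap1 (0.73 and 0.77) and Sephs1 (1.04 and 1.00), while for Agtr2 they read 0.98 and 0.84, close to replicates 2, 6 and 8. For Prdm16 replicate 1 (1.04) lay between the sets and replicate 4 (0.94) was close to replicate 3 (0.95). Hrct1 and Mael stayed within -0.48 and 0.18 on all 8 arrays. With replicates 3, 5 and 7 left out, the AcB61 means were 1.13, 0.83, 0.97 and 0.94 for Prdm16, Sephs1, Agtr2 and Cluap1, and without replicates 2, 6 and 8 they were 0.87, 1.12, 0.64 and 0.54. The granulocyte genes together averaged 0.613 to 0.749 in the first set and 0.27 to 0.491 in the second. Among them, Hdc was low over all AcB61 arrays (-0.29 ± 0.20, SD, n = 8). The part of the granulocyte genes in the split was not tested.

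**Figure D3:**
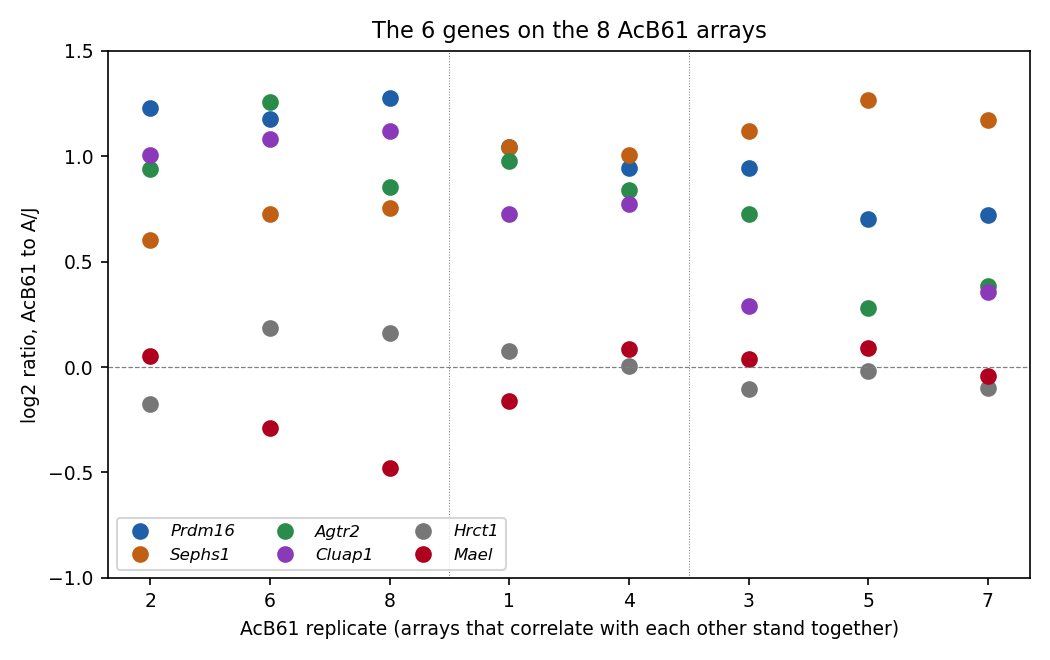
Log2 ratio of AcB61 to A/J (vertical axis) for the 6 genes on the 8 AcB61 arrays (horizontal axis), with arrays that correlate over all features placed together and separated by dotted lines. On replicates 2, 6 and 8 Sephs1 lies at 0.60 to 0.75, below Prdm16, Agtr2 and Cluap1, and on replicates 3, 5 and 7 it lies above them.

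The genes most like each member over the arrays were named by Pearson correlation among 5796 named genes measured on all arrays. The arrays share their strain and the sets described above, which any such correlation includes. Prdm16 was most like Pgm2l1 (r = 0.955), Eif3k (0.952), a subunit of a translation initiation factor, and Rpl36 (0.933), a ribosomal protein. Sephs1 was most like Rpl24 (0.953), also a ribosomal protein, Crip1 (0.949) and Dbn1 (0.943), an actin-binding protein. Within strains, over deviations from the strain means, these 6 correlations remained 0.853 to 0.928. Likeness in shape did not mean likeness in level: Rpl36 averaged -0.63 ± 0.36 in AcB55 and -0.059 ± 0.22 in AcB61, against 0.29 and 1.00 for Prdm16.

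Agtr2 was most like Tmem115 (r = 0.944), Wdr45b (0.943) and Cables2 (0.941), and over 13 arrays Cluap1 was most like Slc38a9 (0.959), Lmo7 (0.957) and Il1rl2 (0.954). The genes closest to Cluap1 had its levels as well, with Lmo7 at 0.068 ± 0.099 in AcB55 and 0.75 ± 0.40 in AcB61. Hrct1 was most like Nemp1 (r = 0.979) of the nuclear envelope, the phosphatase Lhpp (0.954) and Gemin2 (0.948), which helps to assemble the particles of splicing. All 3 were low in AcB55 (-1.16 ± 0.23, -1.03 ± 0.21 and -0.87 ± 0.13) and near 0 in AcB61 (0.024 ± 0.20, 0.012 ± 0.083 and 0.018 ± 0.15). Within strains their correlations with Hrct1 were 0.822, 0.547 and 0.513. Mael was most like Gas6 (r = 0.954), a ligand by which phagocytes bind dying cells, Anxa6 (0.938) and Snrnp48 (0.936).

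The other genes of the members' pathways were counted beside the share of all features. Of 77 genes measured in 6 lists of related genes, 7 were higher and 5 lower in AcB61 (9.09% and 6.49%, against 10.5% and 13.3% of all features). In AcB55, 1 was higher and 13 lower (1.3% and 16.9%, against 9.77% and 10.9%), and between the strains 8 were higher and 2 lower in AcB61 (10.4% and 2.6%, against 5.29% and 6.98%). Their medians were near 0 in each comparison (0.028, -0.013 and 0.051), as were those of all features (-0.00067, -0.0019 and 0.012).

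For Prdm16, 13 of 30 listed genes of its family and of its partners in the brown fat programme were measured. Mecom, Ucp1, Cidea, Dio2, Elovl3, Ppargc1a and Pparg were among the listed genes not measured. The 13 measured genes had a median of 0.00094 in AcB61. Of these 1 passed there, the corepressor Ctbp1 (0.34 ± 0.51, adjusted p = 0.0433, limma), but its value was -0.0033 without replicates 3, 5 and 7, and its call was also lost without AcB61 replicate 3, 4, 5 or 7 or AcB55 replicate 1, 2, 3, 4 or 5 (adjusted p = 0.052 to 0.136). In AcB55, the relative Prdm15 fell (-0.52 ± 0.15, adjusted p = 2.61e-05, limma), while it was -0.049 ± 0.18 in AcB61. The brown fat regulators Ppargc1b and Ppara, named after their values were seen, were 0.00094 ± 0.12 and 0.059 ± 0.25 in AcB61. No fat marker of the fat and stroma list was measured. Its 7 measured genes were Dcn, Bgn, Col1a2, Col3a1, Pdgfrb, Pecam1 and Cdh5. Of these, 1 was higher and 4 lower in AcB61 (14.3% and 57.1%, against 10.5% and 13.3% of all features).

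For Sephs1, 4 genes of selenophosphate and selenocysteine synthesis were measured and 0 of them passed limma's test in AcB61. Of all features, 10.5% were called higher and 13.3% lower there. At an unadjusted p under 0.05, 2 of the 4 passed there. Sepsecs and Secisbp2 were named after their values were seen. Sepsecs, which forms selenocysteine on its transfer RNA, was 0.066 ± 0.085 and Secisbp2, which binds the selenocysteine insertion element, -0.044 ± 0.16. Of 15 selenoproteins, 2 were higher and 1 lower in AcB61 (13.3% and 6.67%), with a median of 0.028. They were the glutathione peroxidases Gpx4 (0.44 ± 0.42, adjusted p = 0.00968) and Gpx1 (0.27 ± 0.32, adjusted p = 0.0236), and Selenos (-0.24 ± 0.17, adjusted p = 0.00861) of the endoplasmic reticulum, all by limma. Gpx4 read 0.17 (adjusted p = 0.26) and Selenos -0.14 (adjusted p = 0.0818) without replicates 3, 5 and 7, and Gpx1 lost its call without replicate 1, 4 or 5 (adjusted p = 0.0804, 0.0804 and 0.0506). In AcB55 4 selenoproteins fell (26.7%, against 10.9% of all features), led by Selenow (-0.75 ± 0.15, adjusted p = 3.75e-06, limma). Selenow was -0.14 ± 0.24 in AcB61 and differed between the strains by 0.61 ± 0.11 (SE, adjusted p = 0.00232, limma).

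For Agtr2, 7 genes of the renin-angiotensin system were measured, none of them a receptor for angiotensin. Mme, a peptidase that cuts angiotensins and also marks leukocyte precursors, rose in AcB61 (0.27 ± 0.085, adjusted p = 0.00226, limma). Thop1, another peptidase, was 0.19 ± 0.15 (adjusted p = 0.0286, limma), and 0.097 (adjusted p = 0.351) without replicates 3, 5 and 7. Its call was also lost without replicate 1, 3, 4, 5 or 7 (adjusted p = 0.0521, 0.0647, 0.0546, 0.0752 and 0.0781). Agt, which encodes angiotensinogen, the precursor of the ligand, fell in AcB55 (-0.59 ± 0.25, adjusted p = 4.3e-05, limma) and was -0.0044 ± 0.15 in AcB61, a difference between the strains of 0.58 ± 0.11 (SE, adjusted p = 0.00294, limma).

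For Cluap1, the list joined genes of intraflagellar transport and cilia with Clu, which encodes clusterin and was listed for the name of Cluap1. Of its 21 measured genes, 0 were higher and 4 lower in AcB61 by limma (19.0% lower, against 10.5% higher and 13.3% lower of all features). At an unadjusted p under 0.05, 0 were higher. Clu is 1 of the 4 that were lower. It had the largest value of the 4 (-0.89 ± 0.43, adjusted p = 1.15e-05, limma), opposed Cluap1 and differed between the strains by -0.88 ± 0.16 (SE, adjusted p = 0.00247, limma). Its AcB61 arrays lay between -1.37 and -0.069 and its AcB55 arrays between -0.20 and 0.12, so the strains overlapped through AcB61 replicate 5. Clu was lowest on replicates 2, 6 and 8 (-1.37 to -1.28), where Cluap1 was highest. Bbs7 (-0.25 ± 0.12), Bbs2 (-0.21 ± 0.11) and Tulp3 (-0.19 ± 0.13) were the other 3, with adjusted p = 0.033, 0.0103 and 0.0077 by limma. Each lost its call without a set of AcB61 arrays: Bbs7 without replicates 3, 5 and 7 (adjusted p = 0.202) or 2, 6 and 8 (0.0866), Bbs2 without 2, 6 and 8 (0.104) and Tulp3 without 3, 5 and 7 (0.0533). The call of Bbs7 was also lost without replicate 2, 3, 4, 5, 7 or 8 (adjusted p = 0.0514 to 0.0767). Other subunits of the transport complex were near 0 in AcB61, such as Ift20 (0.10 ± 0.17), Ift52 (-0.0066 ± 0.079), Ift74 (0.061 ± 0.16) and Ift81 (0.048 ± 0.11), named here after their values were seen.

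For Mael, 17 genes of the piRNA pathway and of germ cells were measured, and 0 passed limma's test in AcB55, where Mael was low (median 0.027, range -0.11 to 0.11). Of all features, 9.77% were called higher and 10.9% lower in AcB55. At an unadjusted p under 0.05, 0 of the 17 passed there. In AcB61 Tdrd9, a helicase of the pathway, was 0.30 ± 0.34 (adjusted p = 0.0138, limma), and 0.11 (adjusted p = 0.345) without replicates 2, 6 and 8. Mybl1, which drives piRNA precursors in testis, was 0.18 ± 0.21 (adjusted p = 0.0353, limma), and 0.091 (adjusted p = 0.349) without replicates 3, 5 and 7. Its call was also lost without replicate 4, 5, 7 or 8 (adjusted p = 0.0817, 0.105, 0.105 and 0.0827) or without AcB55 replicates 3 and 4 (0.0548). Hrct1 has no list, since its pathway is little known.

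**Figure D4:**
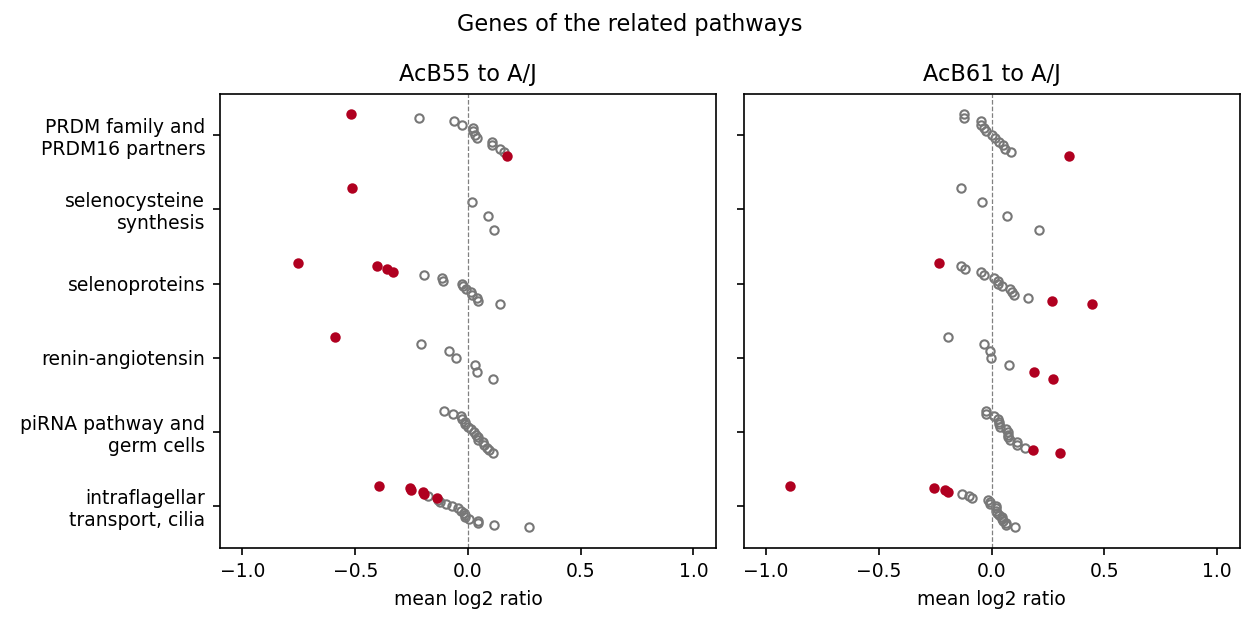
Mean log2 ratio to A/J (horizontal axes) in AcB55 and in AcB61 for the 77 genes of 6 related lists, with filled points past adjusted p = 0.05 by limma. Most points lie near 0. Clu, listed with the cilia genes for the name of Cluap1, is the gene at -0.89 in AcB61, and Selenow the one at -0.75 among selenoproteins in AcB55.

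No measured neighbour on the chromosome differed between the strains by as much as the member beside it. The members were chosen for large values, so nothing is read from this. The nearest 3 measured genes on each side were taken in RefSeq order, where Cluap1 has only 1 measured gene on one side, which gave 34 neighbours. In AcB61 4 were higher and 3 lower (11.8% and 8.82%, against 10.5% and 13.3% of all features, median 0.034). In AcB55 6 were higher and 6 lower (17.6% each, against 9.77% and 10.9%, median 0.0024). Many of these calls were lost in fits that left out arrays. In AcB55 these were Rbm10, Uck2 and Creg1 (higher) and Adcy9, Clta and Ptma-ps2 (lower), with adjusted p up to 0.295 by limma. In AcB61 they were Uck2 (higher) and Fam107b, Camk1d and Glipr2 (lower), with adjusted p up to 0.226 by limma. Between the strains 0 were higher and 3 lower in AcB61 by limma (8.82% lower, against 5.29% higher and 6.98% lower of all features, median 0.041). At an unadjusted p under 0.05, 3 of the 34 were higher and 6 lower in AcB61 than in AcB55. The largest AcB61 neighbour was Creg1 beside Mael (0.55 ± 0.32, adjusted p = 0.000223, limma), which was also 0.38 ± 0.17 in AcB55, where Mael was -0.97. Next to Sephs1, Fam107b was -0.32 ± 0.20 in AcB61 and Mcm10 0.11 ± 0.080, against 0.96 for Sephs1. Pank4 and Smim1, on either side of Prdm16, were 0.045 ± 0.14 and 0.16 ± 0.27 in AcB61. Beside Agtr2, Uxt was 0.13 ± 0.10 and Klhl13 0.035 ± 0.11, and beside Hrct1, Npr2 (-0.30 ± 0.056, adjusted p = 0.000853, limma) fell in AcB55 while Glipr2 was 0.016 ± 0.15.

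The probes of the members stand close together in the numbering of the deposited table, which was noticed after the values were seen. Agtr2, Sephs1, Prdm16 and Cluap1 are features 11974, 12072, 12187 and 12337 of 15247, Hrct1 is feature 10639 and Mael 7398. Features 10000 to 12999 were 19.6% of those measured on at least 3 arrays of each strain. They held 81 of the 110 features (73.6%) that were higher in AcB61 than in AcB55 by over 0.6, and 22 of the 156 (14.1%) that were lower by over 0.6. Of features above 0.6 in AcB61 against A/J they held 98 of 219 (44.7%), and of those above 0.6 in AcB55 37 of 219 (16.9%). Adjacent features did not share the members' values in most cases: Mfge8, just before Sephs1, read -0.80 in AcB61, and Akr1c19, just before Prdm16, 0.071. The feature just before Mael, which has no single gene symbol, read -1.04 in AcB55 and -0.60 in AcB61. No source used here says what the feature number stands for, and its part in the members' values was not tested.

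**Figure D5:**
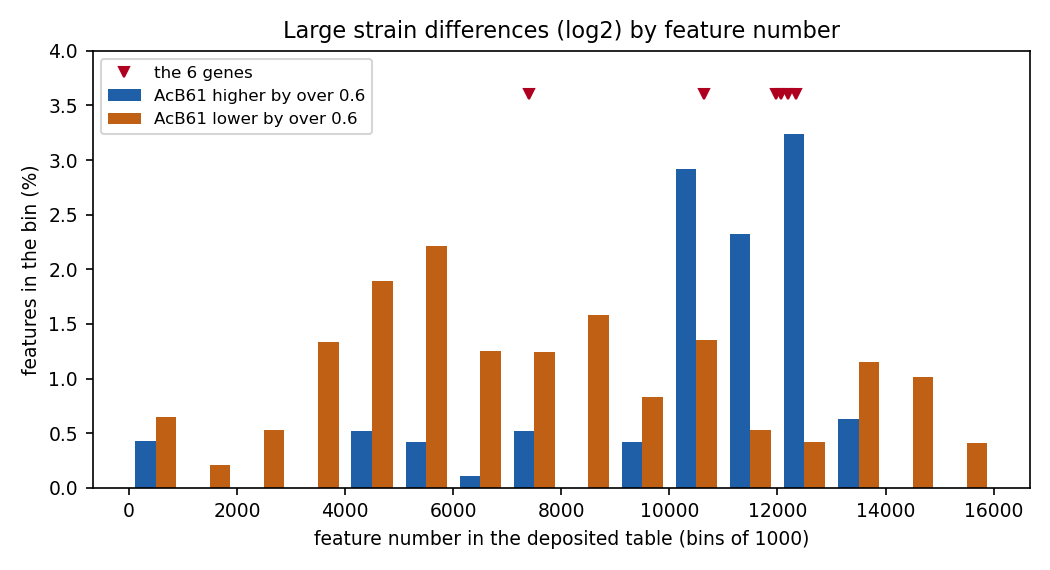
Share of features in bins of 1000 feature numbers (horizontal axis) that were higher or lower in AcB61 than in AcB55 by over 0.6 on the log2 scale (vertical axis, percent), with red triangles at the 6 genes. The bins from 10000 to 12999 hold 81 of the 110 features that were higher, and 5 of the 6 genes.

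Cell markers moved in both strains. Of all features, 10.5% were called higher and 13.3% lower in AcB61, and 9.77% higher and 10.9% lower in AcB55. The granulocyte, B cell, T cell and macrophage lists held at most 4 measured genes, too few to read a share. In AcB61 13 of 15 measured red cell precursor genes and 19 of 21 cell cycle genes were higher by limma and 0 were lower, also at an unadjusted p under 0.05, and both measured B cell genes, H2-Eb1 and Blnk, were lower. In AcB55 13 of 15 and 18 of 21 were higher, and 1 red cell gene, Ermap, was -0.24 ± 0.12 (adjusted p = 0.00572, limma, and 0.07 without replicates 1 and 2). The array means of the red cell list overlapped between the strains (0.446 to 0.741 in AcB55 and 0.55 to 0.751 in AcB61), as did those of the cell cycle list (0.554 to 0.875 and 0.39 to 0.782). Of the granulocyte list 2 of 4 were higher and 1 lower in AcB61, and of the macrophage list 1 of 4 was lower. The 1 T cell gene, Satb1, did not pass in AcB61 (-0.025 ± 0.12). In AcB55, where Hrct1 and Mael were low, other markers were low as well. Both B cell genes fell there, Blnk (-1.06 ± 0.30, adjusted p = 1.01e-06) and H2-Eb1 (-1.31 ± 0.15, adjusted p = 2.4e-07), both by limma. Of the macrophage list 3 of 4 were lower in AcB55, the complement genes C1qa (-0.63 ± 0.46), C1qc (-0.42 ± 0.15) and C1qb (-0.26 ± 0.19). Of the fat and stroma list 6 of 7 measured genes were lower there, none of them a fat marker. The macrophage call was lost for C1qb without replicate 3 or 6, without 1 and 2 or without 3 and 4 (adjusted p = 0.0639 to 0.136), and for C1qc without 3 and 4 (0.0774). In the fat and stroma list, Col3a1 (-0.14 ± 0.066) lost its AcB55 call without replicate 1, 4, 5 or 6. It also lost it without 1 and 2 or without 3 and 4 (adjusted p = 0.0736 to 0.129 in these fits, limma). Pecam1 lost its call without 1 and 2 (0.0526). Satb1 was -0.18 ± 0.14 in AcB55 (adjusted p = 0.0303, limma), a call lost without replicate 1, 2, 5 or 6 or without 1 and 2 (adjusted p = 0.0602 to 0.176). The array means in AcB55 and AcB61 overlapped for the B cell list (-1.43 to -1.03 and -1.17 to -0.724), the macrophage list (-0.528 to -0.148 and -0.357 to -0.0856) and the fat and stroma list (-0.509 to -0.114 and -0.312 to 0.0343). The part of these cells in the members' values was not tested.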

How the data were processed

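Spleen RNA of AcB55 (6 arrays) and AcB61 (8 arrays) was measured against A/J spleen on cDNA arrays with 2 channels. RNA was extracted with TRIzol and images were quantified with QuantArray 3.0, per the labels' protocols, which also name ScanArray and GeneSpring. The authors deposited 1 normalized log2 ratio per feature and array. Log base 2 was taken as given, while centring and dyes are not given in the sources used here.

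Probes with 1 gene symbol were averaged per gene. Features with values on at least 3 arrays of each strain were tested, 13045 in all, of which 6286 were named genes. Each array held 14197 to 14588 features, and the number of arrays limits the precision. limma 3.58.1 (R 4.3.3) fitted a mean per strain, followed by empirical Bayes and Benjamini-Hochberg adjustment over all features. Tests were two-sided at 0.05 and leave out the spread of A/J. They were also run on simulated data whose arrays were independent, unlike the correlated sets of real arrays. That run cannot show how these sets bear on the p-values. Among members, AcB55 against A/J was tested only for Prdm16 and Sephs1. These were among the first 20 genes of AcB61 against A/J and not of AcB61 against AcB55. A/J is the comparator in both strains, so these tests are not independent of the choice. The members and gene lists were chosen with earlier results of these data known.

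Named genes were the members, the 3 most correlated genes of each, and up to 4 genes per list past the threshold in AcB61 against A/J and 2 in AcB61 against AcB55. The 3 nearest measured genes on each side, Clu and Xist were added. Of the named genes, 6271 matched RefSeq by identifier. Alternatives were median centring, a common spread, complete features only, array weights, robust variance, the median over arrays, and leaving out arrays.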

Additional observations from a re-analysis of the deposited data

Results flagged for a closer look

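Outside the 6 members, 18 genes picked by the rule for named genes had effects that differed between the strains by limma's test of AcB61 minus AcB55 (adjusted p under 0.05). No member held an array that stood apart by Dixon's test. The differences on the log2 scale, AcB61 minus AcB55, were as follows.

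Among genes of the 6 related lists, Selenow (0.615), Agt (0.583), Prdm15 (0.472), Rpl30 (0.38), Selenoh (0.369) and Mybl1 (0.289) were higher in AcB61, and Clu (-0.881) and Bbs7 (-0.523) lower. The calls of Selenoh (adjusted p = 0.0431) and Mybl1 (adjusted p = 0.0491) were lost in several of the fits that left out arrays, and that of Rpl30 without AcB55 replicates 3 and 4 (0.0567). Beside the members on their chromosomes, Mcm10 (-0.45), Dcaf6 (-0.323) and Crebbp (-0.28) were lower in AcB61. The call of Dcaf6 was lost without AcB55 replicates 1 and 2 (adjusted p = 0.0787, limma). That of Crebbp was lost without AcB61 replicates 3, 5 and 7 (adjusted p = 0.123) or AcB55 replicates 3 and 4 (0.126). It was also lost without AcB55 replicate 3, 4, 5 or 6 or AcB61 replicate 1, 3, 4, 5 or 7 (0.0538 to 0.0864).

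Among cell markers, Col3a1 (0.567), a collagen of stroma, Alas2 (0.512) and Tmem14c (0.386) of haem synthesis, and Blnk (0.488) of B cells were higher in AcB61. The cell cycle genes Mki67 (-1.01) and Mcm3 (-0.41) were lower, as was Xist (-1.22). The call of Tmem14c was lost without AcB61 replicates 2, 6 and 8 (adjusted p = 0.159, limma) or AcB55 replicates 3 and 4 (0.163). It was also lost without AcB55 replicate 3, 4, 5 or 6 or AcB61 replicate 1, 2, 4, 6 or 8 (0.055 to 0.132). That of Alas2 was lost without AcB55 replicates 3 and 4 (0.134), or without 4 (0.051) or 6 (0.058). Those of Blnk (0.063) and Mcm3 (0.0681) were lost without AcB55 replicates 1 and 2. Blnk also lost its call without AcB55 replicate 5 or 6 or AcB61 replicate 1 (0.0516 to 0.0609).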

How the results depend on the processing

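Of 427 member values, 422 stayed on their side of the threshold or moved by less than 1 SD, and the other 5 concern AcB55 against A/J. Many of the 427 could not change, since leaving out arrays of 1 strain does not alter the mean of the other. Only the AcB55 values of Prdm16 and Sephs1 were tested, so the others have no side of the threshold. The sign turned in 6 of the 427, all close to 0 in AcB61 against A/J: Hrct1 in 5 of 24 alternatives (range -0.027 to 0.051, reported 0.0045) and Mael in 1 of 24 (0.0022 without AcB61 replicates 2, 6 and 8, reported -0.088). In AcB55 against A/J, Prdm16 passed at 0.44 without the arrays marked b, and at 0.29 without AcB61 replicates 3, 5 and 7 or 2, 6 and 8. In that comparison, leaving out single arrays gave 0.15 to 0.36 for Prdm16 and 0.32 to 0.51 for Sephs1. Sephs1 was 0.23 and not called without AcB55 replicates 1 and 2. Features called between the strains numbered 1601, and 2809 with array weights, 705 without the arrays marked b, 2781 without AcB61 replicates 3, 5 and 7, and 2545 without 2, 6 and 8. Leaving out single arrays gave 854 (AcB55 replicate 6) to 1694, with 924 without AcB55 replicate 5. The cause was not tested. Ctbp1 turned to -0.0033 without AcB61 replicates 3, 5 and 7. Of the other named genes' values, 4760 of 5007 kept their call. Of the list counts, 135 of 966 moved by more than 1.5 times, so counts of a few genes in a list are not firm. Leaving out sets of arrays was chosen after seeing the data. Each member has 1 probe, so the alternative of single probes is the same value. No paired analysis was possible because the labels give no replicate numbers shared by the strains. Signal over background is not known for deposited ratios.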
